A study of Mus musculus with 12 samples.

Results

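Medium spiny neurons are the projection neurons of the striatum, and 34 genes that mark them or carry their signalling were followed library by library in a study of heat stress in aged mice. The genes were given as a list of symbols, and all 34 were found among the 25239 gene symbols of the count table. They comprise 6 genes of the direct pathway, 5 genes of the indirect pathway, 10 signalling genes that both pathways use, 6 transcription factors and 7 genes for channels, cytoskeleton and other functions. Messenger RNA of brain and liver was sequenced from male wild-type (WT) C57BL6/J mice of 24 months. Each tissue had 3 control samples and 3 heat stress samples, which gave 12 libraries. Heat stress mice spent 3 hours a day for 15 days at 40 ± 0.5 °C and 60% ± 5% relative humidity, and the other mice are labelled as controls. The WT genotype was shared by all groups, with no transgene. RNA came from a cut piece of frozen tissue of at most 25 mg, and the region of the brain that each piece was taken from is not given in the sources used here. Each library is taken as 1 mouse, and the p-values below measure the spread between these samples only. Brain libraries held 10552686 to 14597197 counts in all.

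The striatum sends its output through a pair of intermingled sets of medium spiny neurons. Neurons of the direct pathway carry the dopamine D1 receptor with the peptides substance P and dynorphin, and they favour movement. Neurons of the indirect pathway carry the dopamine D2 receptor and the adenosine receptor Adora2a with the peptide enkephalin, and they restrain movement. In both, the olfactory type G protein and adenylyl cyclase 5 set the level of cyclic AMP, which acts on the phosphatase inhibitor DARPP-32. Since neurons of both pathways lie side by side, the comparison asked whether genes of the pathways were high in the same libraries, as unequal amounts of striatum in the tissue pieces would give.

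The medium spiny neuron genes were mostly higher in heat stress brain than in control brain, but none passed the edgeR test adjusted over all genes, and DESeq2 called 10 of the 34 on the same libraries. A log2 fold change above 0 was found for 32 of the 34 genes, from 0.18 for Ebf1 to 2.17 for Ido1, and the remaining 2 were Six3 at -0.01 and Kcnip2 at -0.06. Over the 34 genes the median log2 fold change was 0.81, against -0.0030 over all 14806 genes tested in brain. All 34 passed the filter on low counts in edgeR, so no gene is missing from the fold changes. DESeq2 on the brain libraries gave 31 of the 34 an adjusted p-value, and gave none to Isl1, Slc35d3 and Ido1. Direct pathway genes had a median of 1.07 and indirect pathway genes a median of 1.06. These medians were 0.63 and 0.87 without control replicate 1, and 0.67 and 0.72 without heat stress replicate 3. In whole tissue, more cells of a type cannot be told apart from more RNA per cell, nor fewer cells from less RNA.

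In the edgeR quasi-likelihood test, adjusted over all genes by Benjamini and Hochberg, 0 of the 34 genes were past 0.05, as were 0.0% of all genes tested in brain, and the smallest adjusted p-value among the 34 was 0.170. Before adjustment, 24 of the 34 genes were higher in heat stress brain with p under 0.05 and 0 were lower, where 10.0% of all genes were higher and 10.0% lower. The count of 24 became 11 without control replicate 1, where 5.12% of all genes were higher, and 13 without heat stress replicate 3, where 9.66% were. DESeq2 on the same 6 libraries gave 10 of the 34 genes a higher level at an adjusted p-value under 0.05 and none a lower one. Of all 11597 genes that it gave an adjusted p-value, 2.43% were called higher and 2.22% lower. DESeq2 on all 12 libraries together called Rarb alone among the 34, where 0.0141% of all genes were called higher and 0.0493% lower.

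**Figure D1:**
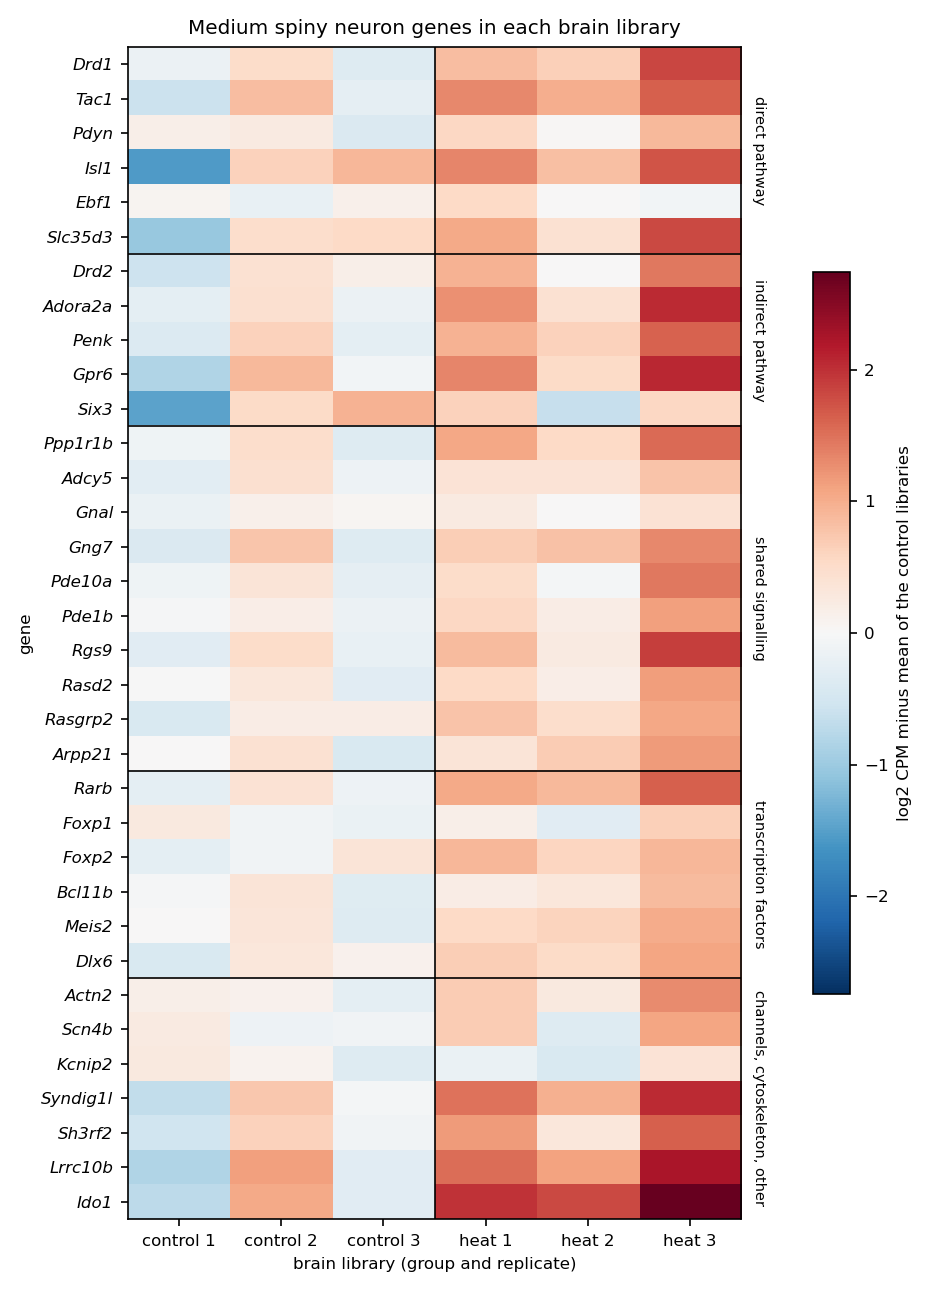
Each row is a gene and each column a brain library, and the colour gives log2 CPM minus the mean of the 3 control libraries, with genes grouped by role. Heat stress replicate 3 holds the highest level of 31 of the 34 genes, control replicate 1 the lowest of 20, and the median of control replicate 2, 0.42, is near that of heat stress replicate 2, 0.41.

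The libraries of a group differed among themselves. For each gene the log2 CPM of a library was set against the mean of the 3 control libraries, and the median of this deviation was taken over the 34 genes. It was -0.27, 0.42 and -0.17 in control replicates 1, 2 and 3, and 0.74, 0.41 and 1.31 in heat stress replicates 1, 2 and 3. Control replicate 2 and heat stress replicate 2 were thus at nearly the same median. Set against each other, heat stress replicate 2 was higher than control replicate 2 for 16 of the 34 genes, with a median log2 difference of -0.0071. Heat stress replicate 3 was higher than control replicate 2 for all 34. It also had the highest level of the 6 libraries for 31 genes, where 12.5% of all brain genes were highest in that library. Control replicate 1 had the lowest level for 20 genes, where 26.0% of all brain genes were lowest in it. Without heat stress replicate 3, the log2 fold change was more than 1.5 times smaller for 16 of the 34 genes, and leaving out any other library did so for 0 to 3. Without heat stress replicate 3 it was 0.72 for Drd1, 0.29 for Pdyn, 0.51 for Drd2, 0.87 for Adora2a, 0.85 for Gpr6, 0.63 for Slc35d3 and 0.25 for Scn4b. Leaving out control replicate 2 made it more than 1.5 times larger for Adcy5, Gng7 and Lrrc10b. The same held for Foxp1 and Scn4b without heat stress replicate 2, for Foxp1 without control replicate 1 and for Ebf1 without heat stress replicate 3. Among controls alone, replicate 2 was above replicate 3 for 27 of the 34 genes, with a median log2 difference of 0.59.

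Every heat stress library was above every control library for 12 of the 34 genes, and none was lower in this way, where 12.9% of all genes were higher and 12% lower without overlap. The 12 genes were Drd1, Tac1, Ppp1r1b, Pde1b, Rasgrp2, Rarb, Foxp2, Meis2, Dlx6, Actn2, Syndig1l and Ido1. The count became 24 without control replicate 2, where 23.4% of all genes were higher without overlap, and 26 without heat stress replicate 2, where 15.7% were. Summed over the 34 genes, normalised read counts (TMM-normalized CPM) were 2414, 3354 and 2248 in control replicates 1 to 3 and 3925, 3360 and 5837 in heat stress replicates 1 to 3. The summed levels of the lowest heat stress library and the highest control library were thus nearly the same.

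Of the direct pathway genes, receptor and peptide genes are given first. Drd1 (chr13:54051183-54055705), the gene of the dopamine D1 receptor, had normalised read counts of 18.6, 29.7 and 16.4 in control replicates 1 to 3 and of 37.8, 33.1 and 75.0 in heat stress replicates 1 to 3. All 3 heat stress libraries were above all 3 controls, with heat stress replicate 3 far above the other two. The group levels were 21.6 ± 7.12 (SD, n = 3) and 48.6 ± 23.0 (SD, n = 3). The log2 fold change was 1.18 with a standard error of 0.33, and the adjusted p-value was 0.170 in edgeR and 0.0162 in DESeq2. Tac1 (chr6:7554879-7565834), which encodes the precursor of substance P, was at 22.9, 62.0 and 28.9 CPM in controls and at 86.7, 69.1 and 107 CPM after heat stress. Its groups did not overlap, although control replicate 2 was far above the other controls. Tac1 had a log2 fold change of 1.21 with a standard error of 0.35, and adjusted p-values of 0.170 in edgeR and 0.0128 in DESeq2.

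Pdyn (chr2:129686565-129699844), the precursor of dynorphin, was at 32.8, 35.1 and 22.4 CPM in control brain and at 43.9, 30.1 and 54.6 CPM in heat stress brain. The groups overlapped, because heat stress replicate 2 was below control replicates 1 and 2. Its log2 fold change of 0.51 (standard error 0.23) had an adjusted p-value of 0.256 in edgeR. Slc35d3 (chr10:19847916-19851459), which acts in the traffic of the D1 receptor to the cell surface, was at 1.51, 4.63 and 4.86 CPM in controls and at 6.83, 4.39 and 11.8 CPM after heat stress. Control replicate 1 was the low library and heat stress replicate 2 was just below the other controls. Its log2 fold change was 1.08 with a standard error of 0.46, with an adjusted p-value of 0.237 in edgeR.

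Isl1 and Ebf1 encode transcription factors of direct pathway neurons. Isl1 (chr13:116298281-116309689) was at 0.686, 3.67 and 4.53 CPM in controls and at 6.09, 4.21 and 8.03 CPM after heat stress. Control replicate 1 was far below the rest, and without that library the log2 fold change was 0.57 in place of 1.06. Ebf1 (chr11:44617317-45008091) was at 6.44, 5.32 and 6.80 CPM in controls and at 9.05, 6.18 and 5.86 CPM after heat stress. It was the direct pathway gene with the smallest difference, with 0.18 on the log2 scale (standard error 0.23), which became -0.05 without heat stress replicate 1. Ebf1 and Isl1 are also used by cells outside the striatum, such as cells of blood vessels for Ebf1.

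**Figure D2:**
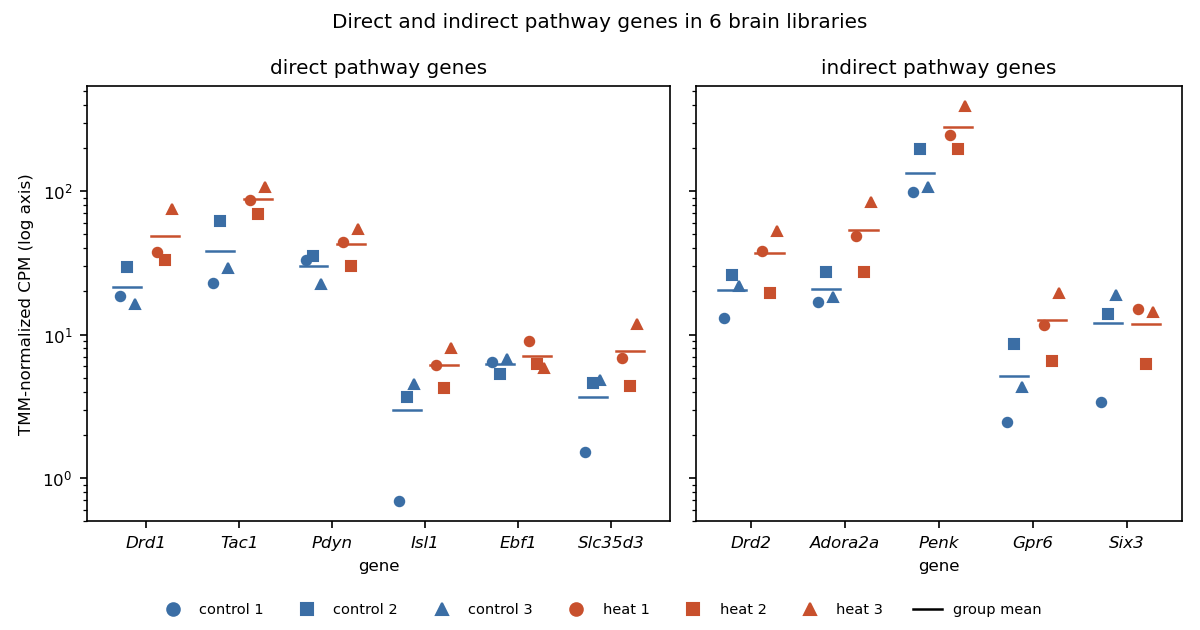
Normalised read counts (TMM-normalized CPM, log axis) of the 6 direct and 5 indirect pathway genes, with a symbol for each replicate, blue for control, red for heat stress and a line at each group mean. Heat stress replicate 3 is the highest library for Drd1, Tac1, Drd2, Adora2a, Penk and Gpr6, and the groups are apart only for Drd1 and Tac1.

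Of the indirect pathway genes, Drd2 (chr9:49340627-49408177) encodes the dopamine D2 receptor and had normalised read counts of 13.0, 26.1 and 21.7 in controls and of 38.0, 19.5 and 53.1 after heat stress. Heat stress replicate 2 was below control replicates 2 and 3. The group levels were 20.3 ± 6.65 (SD, n = 3) and 36.9 ± 16.8 (SD, n = 3). Its log2 fold change was 0.87 with a standard error of 0.36, and the adjusted p-value was 0.234 in edgeR and 0.088 in DESeq2. Adora2a (chr10:75316877-75334784), the gene of the adenosine receptor that opposes the D2 receptor, was at 16.8, 27.4 and 18.1 CPM in controls and at 48.8, 27.1 and 84.0 CPM after heat stress. The groups overlapped by the small gap between control replicate 2 and heat stress replicate 2. Adora2a had the largest log2 fold change of the pathway genes, 1.36 with a standard error of 0.38, and adjusted p-values of 0.170 in edgeR and 0.00934 in DESeq2.

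Penk (chr4:4133531-4138819), the precursor of enkephalin, was at 98.0, 197 and 106 CPM in control brain and at 245, 197 and 393 CPM in heat stress brain. Control replicate 2 and heat stress replicate 2 had nearly the same level, and the other heat stress libraries were above every control. The log2 fold change of Penk was 1.06 (standard error 0.31), with an adjusted p-value of 0.170 in edgeR and 0.144 in DESeq2. Gpr6 (chr10:41069977-41072285), an orphan receptor that raises cyclic AMP in indirect pathway neurons, was at 2.47, 8.55 and 4.29 CPM in controls and at 11.6, 6.54 and 19.5 CPM after heat stress. Heat stress replicate 2 was again below control replicate 2. For Gpr6 the log2 fold change was 1.32 (standard error 0.48), with adjusted p-values of 0.196 in edgeR and 0.0529 in DESeq2. Six3 (chr17:85613608-85629302), a transcription factor of indirect pathway neurons that is also used elsewhere in the forebrain, was at 3.36, 14.0 and 18.8 CPM in controls and at 15.0, 6.18 and 14.4 CPM after heat stress. No direction was seen for it, with a log2 fold change of -0.01 and a standard error of 0.57.

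By their medians, direct and indirect pathway genes put the libraries in one order, except that control replicate 2 and heat stress replicate 2 changed places. The median deviation of the direct pathway genes from the control mean was -0.37, 0.49 and -0.06 on the log2 scale in control replicates 1 to 3, and 0.94, 0.54 and 1.67 in heat stress replicates 1 to 3. For the indirect pathway genes it was -0.57, 0.53 and -0.07 in the controls, and 0.96, 0.42 and 1.63 after heat stress. Within a library the 2 medians differed by 0.20 at most, in control replicate 1, and by -0.03 to 0.12 in the other 5. Between heat stress replicate 2 and control replicate 2 they parted: 4 of 6 direct pathway genes and 0 of 5 indirect pathway genes were higher in the heat stress library, with median log2 differences of 0.16 and -0.38.

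Ratios between a direct and an indirect pathway gene compare the pathways within a library. The log2 ratio of Drd1 to Drd2 was 0.52, 0.19 and -0.41 in control replicates 1 to 3 and -0.01, 0.76 and 0.50 in heat stress replicates 1 to 3. The groups overlapped, and the mean difference of 0.32 had p = 0.5 in an exact two-sided permutation test. The log2 ratio of Tac1 to Penk was higher by 0.25 after heat stress (exact two-sided permutation test, p = 0.2), and that of Drd1 to Adora2a was lower, with a difference of -0.12 (p = 0.6, same exact test). The log2 ratio of Pdyn to Penk was -1.58, -2.49 and -2.25 in controls and -2.48, -2.71 and -2.85 after heat stress. Its difference was -0.58 with p = 0.2 in the exact test, and control replicate 2 lay just below heat stress replicate 1. The 4 ratios had Benjamini-Hochberg adjusted values of 0.4 to 0.6 in these exact tests, and 3 against 3 libraries cannot give a p-value under 0.1. Thus a difference between the pathways was not detectable with these libraries.

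**Figure D3:**
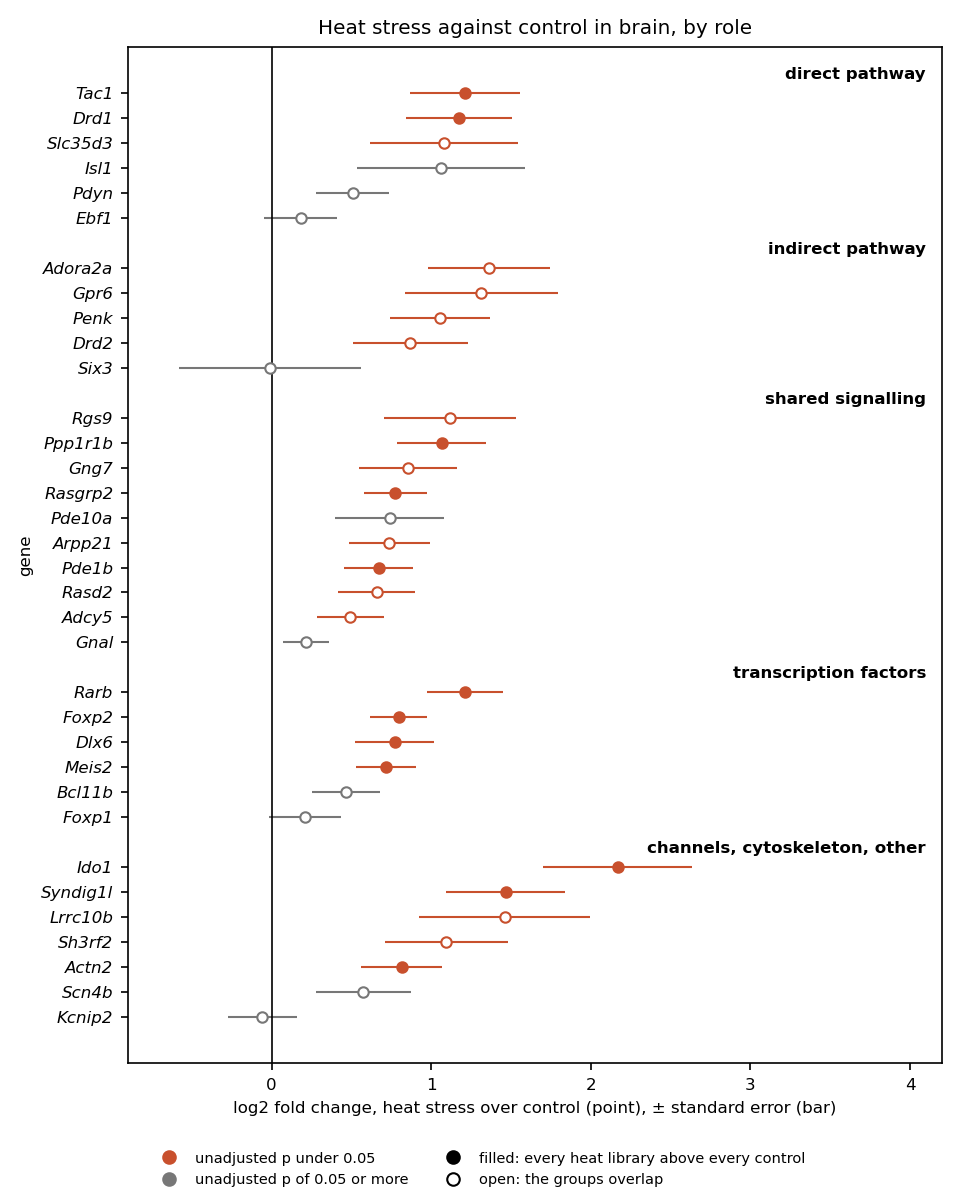
Points give the log2 fold change of heat stress over control in brain for the 34 genes with the standard error as a bar, red where the unadjusted p-value was under 0.05 and filled where the groups did not overlap. All but Six3 and Kcnip2 lie to the right of 0, with direct pathway genes up to 1.21 for Tac1 and indirect pathway genes up to 1.36 for Adora2a.

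Of the 10 signalling genes common to both pathways, all 10 had a log2 fold change above 0, with a median of 0.74, and 8 were at p under 0.05 before adjustment, where 10.0% of all genes were higher. Ppp1r1b (chr11:98348404-98357796) encodes DARPP-32, which inhibits protein phosphatase 1 when dopamine D1 receptors are active. It was at 157, 236 and 132 CPM in controls and at 353, 247 and 501 CPM after heat stress. Its groups did not overlap, though heat stress replicate 2 was close to control replicate 2. The levels were 175 ± 54.5 (SD, n = 3) and 367 ± 128 (SD, n = 3). The log2 fold change was 1.07 with a standard error of 0.28, and the adjusted p-value was 0.170 in edgeR and 0.00934 in DESeq2. Rasgrp2 (chr19:6399340-6415216), an activator of the small GTPase Rap1 in these neurons, was at 24.5, 37.7 and 37.7 CPM in controls and at 56.7, 45.6 and 68.6 CPM after heat stress. All heat stress libraries were above all controls, and the log2 fold change was 0.78 (standard error 0.20).

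The other signalling genes had log2 fold changes of 0.22 to 1.12. The largest was that of Rgs9, which speeds the shut-off of G protein signals, and it was 0.54 without heat stress replicate 3. Gng7 and Gnal encode subunits of the olfactory type G protein and had log2 fold changes of 0.85 and 0.22. Adcy5, the adenylyl cyclase that this G protein drives, was at 0.49. Without control replicate 2, Gng7 was at 1.33 and Adcy5 at 0.75. With length and GC offsets, Adcy5 was at 0.80 and Gnal at 0.37. The phosphodiesterases that break down cyclic nucleotides, Pde10a and Pde1b, were at 0.74 and 0.67, and without heat stress replicate 3 they were at 0.23 and 0.39. Rasd2, a striatal small GTPase, was at 0.66 and Arpp21, a phosphoprotein regulated by cyclic AMP, at 0.74, and without that library they were at 0.36 and 0.49. Gnal was then at 0.12. Thus Gnal had the smallest difference of these genes, and that of Rgs9 was within its standard error, 0.41, of that of Ppp1r1b. DESeq2 called Ppp1r1b, Rasgrp2, Pde1b and Arpp21 of this group. Exons of Ppp1r1b share 15.7% of their length with the noncoding transcript 1700003D09Rik on the opposite strand, and those of Penk share 14.3% with A830012C17Rik, so reads of the partners could enter these counts if strand was not used.

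Per kilobase of merged exons, which allows levels to be compared between genes, Penk had the highest level of the 34 genes in control brain at 81.9 CPM per kb. Ppp1r1b followed at 59.8 and Gng7 at 55.9 CPM per kb. At the other end were Ebf1 at 0.634, Isl1 at 0.748, Sh3rf2 at 0.783 and Ido1 at 0.931 CPM per kb. In heat stress brain Penk was at 170 and Ppp1r1b at 125 CPM per kb, and Ido1 at 4.11 CPM per kb.

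The transcription factors had a median log2 fold change of 0.74, and 4 of 6 were higher with an unadjusted p-value under 0.05, against 10.0% of all genes. Rarb (chr14:16430839-16819156), the retinoic acid receptor beta, was at 9.80, 15.5 and 10.7 CPM in controls and at 24.5, 21.8 and 36.8 CPM after heat stress. Every heat stress library was above every control, with a gap between control replicate 2 and heat stress replicate 2. Rarb had the smallest unadjusted p-value of the 34 genes, 0.000611 in edgeR, with a log2 fold change of 1.21 (standard error 0.24). Its adjusted p-value was 0.170 in edgeR, 0.00223 in DESeq2 on the brain libraries and 0.0252 in DESeq2 on all libraries. Exons of Rarb share 1793 bases, 34.1% of their length, with Top2b on the opposite strand, and the strand setting used in counting is not given in the sources used here. Top2b itself was at 119 ± 12.6 (SD, n = 3) CPM in controls and 133 ± 4.64 (SD, n = 3) CPM after heat stress, a log2 fold change of 0.17. How much of the Rarb count came from Top2b was not tested.

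Foxp2 (chr6:14901349-15441977), a forkhead factor known for its part in vocal and motor learning, was at 17.1, 19.4 and 26.6 CPM in controls and at 39.2, 31.2 and 39.0 CPM after heat stress. Its groups did not overlap, and the log2 fold change was 0.80 (standard error 0.18). Meis2 (chr2:115863064-116065839), a homeobox factor of the developing striatum, was at 104, 130 and 80.7 CPM in controls and at 151, 157 and 207 CPM after heat stress. It too was higher in every heat stress library, with a log2 fold change of 0.71 (standard error 0.19). DESeq2 called both, with adjusted p-values of 0.0161 for Foxp2 and 0.0193 for Meis2. Dlx6, a homeobox factor of forebrain GABA neurons, had a log2 fold change of 0.77 and groups that did not overlap. Bcl11b, which encodes CTIP2, was at 0.47 and at 0.24 without heat stress replicate 3. Foxp1, the paralogue of Foxp2, was at 0.21 and became -0.07 without heat stress replicate 3. Foxp1, Bcl11b and Meis2 are also expressed in the cortex.

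The largest difference of all was found among the 7 remaining genes, whose median log2 fold change was 1.10. Ido1 (chr8:24584136-24597009), an enzyme that opens the ring of tryptophan on the way to kynurenine, was at 0.823, 3.14 and 1.13 CPM in controls and at 6.28, 5.55 and 10.7 CPM after heat stress. Each heat stress library was above each control, at low counts. The log2 fold change was 2.17 with a standard error of 0.47, the adjusted p-value was 0.170 in edgeR, and DESeq2 on the brain libraries gave it none after its filter on low means. Syndig1l (chr12:84677277-84698831), a synaptic membrane protein enriched in striatum, was at 12.4, 33.3 and 19.4 CPM in controls and at 56.8, 39.6 and 82.9 CPM after heat stress. The groups did not overlap, and its log2 fold change was 1.47 (standard error 0.37). Actn2 (chr13:12269426-12340760), an alpha-actinin that links actin to receptors in spines, was at 11.2, 10.8 and 8.34 CPM in controls and at 16.3, 12.2 and 24.9 CPM after heat stress. It was higher in every heat stress library, with a log2 fold change of 0.81 (standard error 0.25), which was 0.49 without heat stress replicate 3.

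Lrrc10b and Sh3rf2 had log2 fold changes of 1.46 and 1.10 with overlapping groups, and Lrrc10b was at 2.25 without control replicate 2. Lrrc10b varied widely within the control group, with 29.7 ± 22.1 (SD, n = 3) CPM there and 81.1 ± 32.9 (SD, n = 3) CPM after heat stress. Scn4b, the beta subunit of sodium channels that shapes resurgent current, was at 0.58. Kcnip2, which encodes a partner of A-type potassium channels that the cortex also expresses, was at 120 ± 24.8 (SD, n = 3) CPM in controls and 115 ± 33.9 (SD, n = 3) CPM after heat stress. Kcnip2 and Scn4b had the smallest log2 fold changes of this group. The standard error of Scn4b was 0.30, and the next gene, Actn2, was at 0.81.

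The genes were also sorted from general knowledge, with earlier results of these data known, by how far they are confined to the striatum. The 16 genes expressed mostly in striatum had a median log2 fold change of 1.11, from 0.49 to 2.17, and 15 of them had an unadjusted p-value under 0.05. The 18 genes that other brain regions also express strongly had a median of 0.69, from -0.06 to 1.21, and 9 of them had an unadjusted p-value under 0.05. The ranges overlap widely, and 10.0% of all genes were higher with such a p. In heat stress replicate 3 the median deviation from the control mean was 1.72 for the former and 1.04 for the latter, and in heat stress replicate 2 it was 0.47 and 0.30. No test was run between these sets.

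Promoter windows were read for the members with a RefSeq start site, whatever their difference, to show which stretches of DNA lie there. RefSeq windows of 250 bases before to 50 bases after a start site (GRCm38.p6) were matched for 25 of the 34 genes, with 43 windows for them among 32851 in all, and they were searched on both strands. No window was matched for Penk, Adora2a, Ppp1r1b, Gnal, Foxp2, Dlx6, Syndig1l, Sh3rf2 and Ido1, so these genes were not searched. Among the genes searched, the cyclic AMP response element TGACGTCA was found for Gpr6 alone, and in 1.79% of all windows. The related element TGCGTCA, of the kind found in the enkephalin gene enhancer, was found for Tac1, Isl1 and Arpp21, and in 2.12% of all windows. The retinoic acid response element known from Rarb, a direct repeat of receptor half-sites, was found for Rarb, and in 2 of the 32851 windows (0.00609%). The AP-1 element TGANTCA occurred for 1 gene, Arpp21, and in 7.81% of all windows, and TATAAA for 4 genes and in 13.6% of windows. None of these patterns overlapped another at the sites printed. The 250 bases before the start site are shown 5′ to 3′ on the strand of the gene, with the matched element in capitals, for the Rarb element and for 3 pathway genes with a cyclic AMP type element. The windows are chr14:16575477-16575726 on the minus strand for Rarb, chr6:7554811-7555060 on the plus strand for Tac1, chr13:116309689-116309938 on the minus strand for Isl1 and chr10:41072291-41072540 on the minus strand for Gpr6.
Rarb: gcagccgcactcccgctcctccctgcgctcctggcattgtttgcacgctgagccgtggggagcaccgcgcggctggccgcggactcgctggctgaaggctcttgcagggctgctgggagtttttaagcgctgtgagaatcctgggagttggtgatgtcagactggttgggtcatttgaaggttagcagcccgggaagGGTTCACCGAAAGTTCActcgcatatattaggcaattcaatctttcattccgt
Tac1: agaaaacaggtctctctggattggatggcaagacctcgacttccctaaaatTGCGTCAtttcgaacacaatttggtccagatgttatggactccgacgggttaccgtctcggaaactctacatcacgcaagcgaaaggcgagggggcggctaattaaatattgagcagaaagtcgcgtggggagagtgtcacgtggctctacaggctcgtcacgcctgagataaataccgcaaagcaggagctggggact
Isl1: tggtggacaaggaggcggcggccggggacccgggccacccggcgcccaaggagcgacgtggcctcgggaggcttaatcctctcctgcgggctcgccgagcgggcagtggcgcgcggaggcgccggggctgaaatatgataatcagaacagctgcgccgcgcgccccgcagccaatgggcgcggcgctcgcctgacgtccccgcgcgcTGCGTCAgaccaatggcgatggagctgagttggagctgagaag
Gpr6: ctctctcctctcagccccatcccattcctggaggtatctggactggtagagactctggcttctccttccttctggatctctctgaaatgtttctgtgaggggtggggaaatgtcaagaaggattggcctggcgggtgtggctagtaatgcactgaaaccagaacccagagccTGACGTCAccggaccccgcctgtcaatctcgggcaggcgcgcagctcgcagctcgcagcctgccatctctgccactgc
The element begins at base -53 for Rarb, -199 for Tac1, -43 for Isl1 and -78 for Gpr6, counted from the RefSeq start site. The Rarb window lies inside the annotated span of the gene. A match of letters is a description of the sequence, and binding was not measured. The 4 genes had log2 fold changes of 1.06 to 1.32, and Arpp21, with both TGCGTCA and TGANTCA, was at 0.74.

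Other genes linked to the striatum differed less. Of 23 other striatal genes tested, 17 had a log2 fold change above 0 with a median of 0.20, 6 higher and 1 lower had p under 0.05 before adjustment (10.0% of all genes in each direction), and edgeR called 0. The highest was Rxrg, a retinoid X receptor that pairs with retinoic acid receptors, with a log2 fold change of 1.38 (standard error 0.39). Gpr52, a receptor that raises cyclic AMP in indirect pathway neurons, was at 0.93. Both were higher without overlap of the groups, and DESeq2 called both.

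Beyond the striatal genes, the dopamine, cyclic AMP and DARPP-32 machinery that many neurons use had a median log2 fold change of 0.02 over 30 genes tested. Before adjustment 5 of the 30 were higher and 2 lower with p under 0.05, near the 10.0% of all brain genes in each direction. Adcy1, a calcium-stimulated adenylyl cyclase found in cortex and hippocampus, was lower in every heat stress library, with 939 ± 104 (SD, n = 3) CPM in controls and 620.3 ± 65.7 (SD, n = 3) CPM after heat stress. Its log2 fold change was -0.60. The adjusted p-value was 0.170 in edgeR, 0.00847 in DESeq2 on the brain libraries and 0.884 in DESeq2 on all libraries. Ppp1cb, a catalytic subunit of the phosphatase that DARPP-32 inhibits, was at 0.42, and Adcy3 at -0.40. The log2 fold changes of Adcy5 and Adcy1 were of opposite sign, and edgeR called neither gene.

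Markers of other cells and regions were read beside these values, since a tissue piece can hold different amounts of each. Striatal interneurons had a median log2 fold change of 0.19 over 11 genes, with 1 gene higher at an unadjusted p-value under 0.05. Genes of cortex and hippocampus had a median of -0.33 over 12 genes, with 1 lower. Thalamus and habenula genes had a median of -1.11, and 6 of 13 were lower with p under 0.05 before adjustment, where 10.0% of all genes were. Their summed level was 159 to 607 CPM in controls and 113 to 347 CPM after heat stress. Choroid plexus genes had a median of -1.24, none of the 13 had a log2 fold change above 0, 8 had p under 0.05 before adjustment, and their summed level was 1287 to 2565 CPM in controls and 272 to 1164 CPM after heat stress. Endothelial genes had a median of -0.94, none of the 9 was above 0, 8 had p under 0.05 before adjustment, and their summed level was 257 to 434 CPM in controls and 186 to 233 CPM after heat stress. The 2 olfactory bulb genes tested of 4 were both above 0, with a median of 0.64, and Cdhr1 alone had p under 0.05 before adjustment. The summed level of the 4 was 9.71 to 15.2 CPM in controls and 12.3 to 22.9 CPM after heat stress, so the groups overlapped. The median was -0.24 for hypothalamus, -0.37 for cerebellum and hindbrain and 0.15 for midbrain dopamine neuron genes. No gene of the thalamus, choroid plexus and endothelial lists was at 0 in all libraries of a group in brain.

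**Figure D4:**
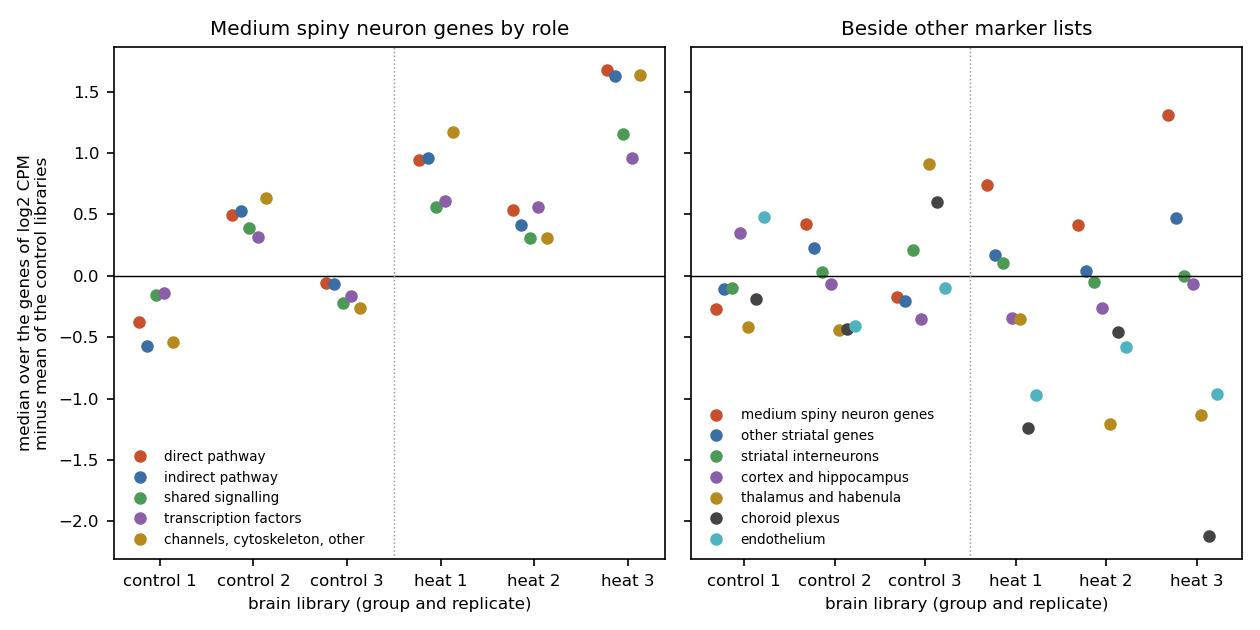
Points give, for each brain library, the median over the genes of a list of log2 CPM minus the control mean, for the 5 role groups on the left and for the 34 genes beside other marker lists on the right. The role groups keep nearly one order of libraries, and in heat stress replicate 3 the 34 genes sit at 1.31 while choroid plexus genes sit at -2.12.

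The lists did not take one order across libraries. Choroid plexus genes had a median deviation of -0.18, -0.43 and 0.60 in control replicates 1 to 3 and of -1.24, -0.46 and -2.12 in heat stress replicates 1 to 3. They were lowest in heat stress replicate 3, where the medium spiny neuron genes were highest. Thalamus and habenula genes were at -0.42, -0.44 and 0.91 in controls and at -0.35, -1.21 and -1.13 after heat stress, so control replicate 3 stood above the rest. Endothelial genes were at 0.48, -0.40 and -0.10 in controls and at -0.97, -0.58 and -0.96 after heat stress. Control replicate 2, the control with the highest medium spiny neuron levels, had the lowest choroid plexus and endothelial levels of the controls. The median log2 fold change was 0.06 for oligodendrocyte, -0.19 for astrocyte, 0.04 for microglial and -0.20 for pan-neuronal genes. Immediate early genes, which neurons switch on with activity, had a median of -0.54, and 5 of 10 were lower with p under 0.05 before adjustment, where 10.0% of all genes were. The part that tissue composition had in the levels of the medium spiny neuron genes was not tested, and with these libraries it cannot be told apart from a change within the neurons. Ribosomal RNA precursor reads on Rn45s made up 6.07% of the counts of control replicate 2 and 1.62% to 3.75% of the other brain libraries, and without that gene the median log2 fold change of the 34 genes was 0.80.

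Liver, which has no medium spiny neurons, served as the tissue where these genes mark no such cell. Of the 34 genes, 11 had enough counts for the test there: Adora2a, Ppp1r1b, Adcy5, Gnal, Gng7, Pde1b, Rasgrp2, Rarb, Foxp1, Foxp2 and Meis2. In edgeR 0 of the 11 were called, as were 0.0% of all genes tested in liver, and the smallest adjusted p-value was 0.854. DESeq2 on the liver libraries called 0 as well, where 0.246% of all genes were called higher and 0.307% lower. Before adjustment only Rasgrp2 was higher with p under 0.05 and 0 genes were lower, where 2.97% of all liver genes were higher and 2.87% lower. Adora2a and Rasgrp2 were higher without overlap of the groups and 0 of the 11 lower, where 5.38% of all liver genes were higher and 5.73% lower in this way. Rasgrp2 had 21.1 ± 1.43 (SD, n = 3) CPM in control liver and 27.0 ± 0.428 (SD, n = 3) CPM in heat stress liver, a difference of 0.35 on the log2 scale (standard error 0.16). Ppp1r1b was at 8.95 ± 1.60 (SD, n = 3) and 9.45 ± 2.06 (SD, n = 3) CPM, a log2 fold change of 0.07. The median log2 fold change of the 11 genes in liver was 0.03. Gnal and Gng7 had 21 and 29 counts in liver control replicate 1, against 4 and 1 in replicate 2 and 8 and 8 in replicate 3. Foxp2 had its lowest liver level in that library, 2.78 CPM. Oligodendrocyte and pan-neuronal genes had their highest summed liver levels there, as given under other observations.

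**Figure D5:**
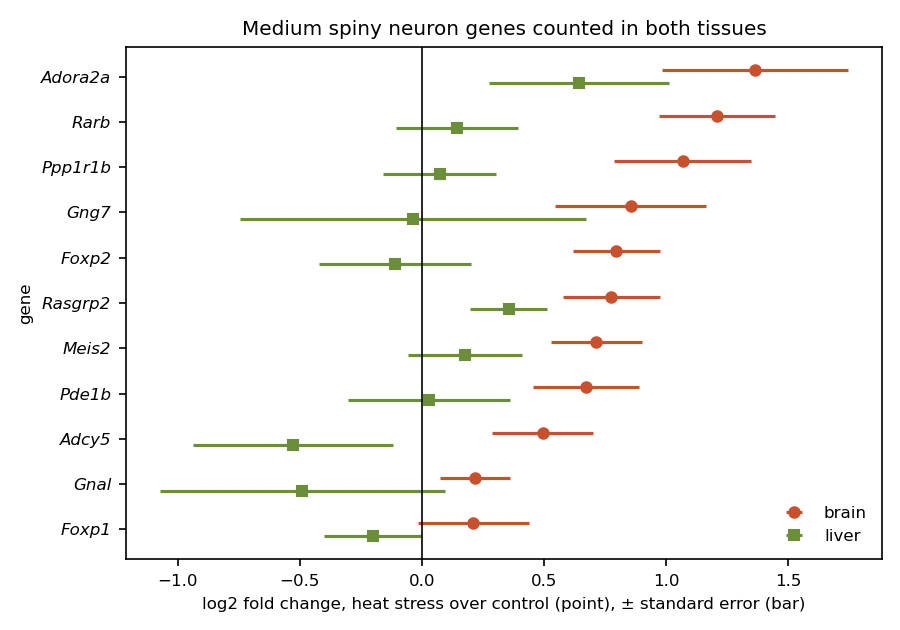
Log2 fold changes of heat stress over control with standard errors as bars, for the 11 genes tested in both tissues, as red circles for brain and green squares for liver. Every brain value lies to the right of its liver value.

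A test of the difference between tissues, liver minus brain, was run in 1 edgeR fit of all 12 libraries. The fit took these libraries as independent, and brain and liver samples of the same mouse, if any, were not paired. All 11 differences were below 0, from -1.09 for Rarb to -0.42 for Foxp1. None was called, the adjusted p-values in edgeR were 0.516 to 0.690, and 0.00632% of all genes were called. Before adjustment 4 of the 11, Rarb, Foxp2, Ppp1r1b and Adcy5, were lower in this difference with p under 0.05, where 5.91% of all genes were lower and 3.73% higher. A difference of the heat effect between brain and liver was thus not detectable for these genes after adjustment.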

How the data were processed

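Messenger RNA of brain and liver was sequenced in 12 libraries, 3 per group. The deposited file holds raw counts per gene symbol, made by the authors, and per the labels the tools were FastQC 0.11.9, Trimmomatic 0.39, HISAT2 2.2.1 on mm10 and featureCounts of Subread 2.0.1. The methods also describe alignment with Tophat2 and counting with HTSeq, and the strand setting and annotation release are not given in the sources used here. Libraries were stranded and enriched with oligo-dT. The authors' own tables of fold changes and p-values were not used. Totals were 10466198 to 15609040 counts per library, and a count of 0 allows up to 3 counts, 1.92e-05% to 2.87e-05% of a library, for counting error only.

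Heat stress was compared with control within a tissue by edgeR 4.0.16 in R 4.3.3, with robust quasi-likelihood fits, TMM factors, filterByExpr (minimum count 10, minimum total 15) and Benjamini-Hochberg adjustment over all genes tested. A gene was called at an adjusted p-value under 0.05. A standard error was taken as the size of the log2 fold change divided by the root of F. Deviations per library were taken on log2 CPM (prior count 2). Ratios were tested by exact permutation. DESeq2 1.42.0 was an alternative, as were other normalization factors, other filters, the replicate number as a block, length and GC offsets from GENCODE M21 (24366 symbols matched), all libraries in 1 fit and each library left out in turn. Coordinates are those of GENCODE M21 on GRCm38, which is mm10. On simulated brain counts, 137 of 200 genes changed 2-fold and 190 of 200 changed 4-fold were recovered. False calls there numbered 19 and 7 among 14806 genes. On the measured brain counts edgeR called 0 of 14806 genes. Whether recovery would be as high with the differences seen between these libraries was not tested.

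All 34 genes are named, with values per library for pathway genes and for the 8 other genes with the smallest unadjusted p-value. Some genes of the other lists are not reported here by name. Of each such list at most the 3 genes with the smallest p-value are named, and Top2b, Rn45s and the transcripts with overlapping exons were named after their values were seen. The genes, lists and tests were chosen with earlier results of these data known.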

Additional observations from a re-analysis of the deposited data

How the results depend on the processing

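By edgeR, 0 of the 34 genes were called in brain under every normalization, filter, offset and left-out library tried, and 0 were called in liver, where 11 were tested and 6 to 32 under the alternatives. DESeq2 called 10 in brain on the brain libraries (2.43% of all genes higher), 10 when its filter was tuned to 0.05 (chosen after the data were seen; 4.09%) and 1 on all libraries (0.0141%), and the cause was not tested. The main count of 24 genes with an unadjusted p-value under 0.05 ranged from 11 to 27 with a library left out, lowest without control replicate 1. The 12 genes without overlap ranged from 12 to 26 with a library left out, highest without heat stress replicate 2, and were 11 with no filter. Over all genes these shares were 4.85% to 13.6% and 14.9% to 23.4% with a library left out. The median log2 fold change of 0.81 ranged from 0.57 without heat stress replicate 3 to 0.97 without heat stress replicate 2. Of 612 refits of single genes, 578 kept their direction and call, 21 became called and 13 changed direction, all in Six3, Kcnip2, Ebf1 or Foxp1. Six3 was at 0.12 with the replicate block, 0.11 with length and GC offsets, 0.25 with both, and -0.47 to 0.47 with a library left out. Kcnip2 was at 0.058 with length and GC offsets, 0.040 with these and the block, and -0.32 to 0.10 with a library left out. Ebf1 ranged from -0.048 to 0.30 and Foxp1 from -0.070 to 0.42 in the same way. The labels do not say whether replicate numbers pair the samples. In brain, correlations of same-numbered deviations across genes were -0.29, 0.19 and -0.20, and those of unlike numbers were -0.21 to 0.37. Such correlations cannot settle whether samples were paired. The replicate block called 0 genes, with a median of 0.80 and 18 genes higher at an unadjusted p-value under 0.05, as were 9.84% of all genes.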

Other observations

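In liver, 23 of the 34 genes had too few counts for the test. Of these, 11 had at most 3 counts in every liver library, and Gpr6 and Dlx6 had no count in any. The other 12 had more than 3 counts in at least 1 liver library, and 11 of them had their highest count in liver control replicate 1 or heat stress replicate 2. Actn2, an alpha-actinin that skeletal muscle also uses in its Z-discs, had 77 counts in control replicate 1, 406 in heat stress replicate 2 and at most 1 in each of the other 4 liver libraries. Scn4b, a sodium channel subunit also found in muscle, had 52 and 185 counts in these libraries and 0 in the other 4. Arpp21 had 39 counts in control replicate 1 and at most 2 elsewhere. The summed level of 9 skeletal muscle genes in control replicate 1 and heat stress replicate 2 was 391 and 2259 CPM, and it was 1.03 to 7.10 CPM in the other 4. Control replicate 1 also stood apart for brain cell lists. The summed level of 10 oligodendrocyte genes was 51.6 CPM there and 15.4 to 23.2 CPM in the other liver libraries. For 11 pan-neuronal genes it was 40.0 CPM there and 16.2 to 20.8 CPM in the others. No group difference is read from these counts, and the source of the transcripts was not tested.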
